A study of Mus musculus with 8 samples.

Results

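The effect of a high-fat diet was measured in visceral white adipose tissue of mice that carried the red fluorescent protein mCherry at the p21 locus and no Tert transgene. The 4 libraries of the 2 mCherry groups were chosen by their titles from the 8 libraries of the series. Mice rep144 and rep146 ate the standard diet (SD) and mice rep128 and rep129 the high-fat diet (HFD). Each group held 2 mice, and pairs of values follow that order. All 4 mice had the genotype p21+/mCherry, in which mCherry stands under the promoter of Cdkn1a, the gene of the cell-cycle inhibitor p21, and 1 intact p21 allele remains. The other 4 libraries, from high-fat-fed mice with Tert or TertCi at the same locus, entered no comparison. They shared in the estimate of the spread between mice, the gene filter, the scaling and the clustering of nuclei. Per the labels, about 200 mg of snap-frozen tissue per mouse was homogenised. DAPI-stained nuclei were sorted by flow cytometry, and their RNA was tagged in droplets with the 3′ chemistry of 10x Genomics. The series' design text names the stromal vascular fraction and gives high-fat feeding to p21+/- animals. The sample labels were followed here. Age, sex, the composition of the diets and the time on them are not in the labels used here, and the processing batches of 2 samples are not recorded per mouse.

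White adipocytes store fatty acids as triglyceride in a single lipid droplet, release them by lipolysis, and secrete hormones such as leptin. When the tissue expands in obesity, adipocytes enlarge and die, and macrophages gather around them, take up lipid and turn on a program of lysosomal and lipid-handling genes. Progenitors, mesothelial cells of the tissue surface and endothelial cells make up most of the other cells. A change of a transcript in the whole tissue can therefore follow the number of cells of a type, the RNA in each cell, or both. The question was which changes with diet stood in the markers of cell types and which were also measured within nuclei of a single type.

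Molecules were counted by unique molecular identifiers (UMIs) per barcode, which stands for a droplet. Total UMIs were 38890492 and 65537198 in the SD mice and 139749876 and 27637922 in the HFD mice. Whole-tissue levels were sums over barcodes with at least 1000 UMIs, of which there were 6368 and 9784 in the SD mice and 21996 and 4536 in the HFD mice, and the limit of 5% mitochondrial UMIs removed 0 of them. Levels are given as CPM, the UMIs of a gene scaled to a fixed total. No pair of the 8 libraries shared more than 0.699% of the smaller library's barcodes. Several libraries stood apart. rep128 held genes of the epididymal epithelium, with Lcn8 at 60.5, Gpx5 at 55.0 and Spag11b at 55.7 CPM against at most 0.267 CPM in the other 3 mice, and albumin (Alb) at 9.65 CPM against at most 0.467. rep146 held Rbfox3, a neuronal gene, at 249 and Myh11, a smooth-muscle gene, at 411 CPM against at most 3.24 and 22.8 CPM. Both led the same unnamed cluster of 193 nuclei, all from rep146, which scored nearest to mural cells. Unnamed clusters of 64 and 27 nuclei that scored nearest to epithelium also came from rep146 alone. The genes named here were chosen after their values were seen. The ribosomal RNA entry Rn18s-rs5 stood at 57336 and 41260 CPM in the SD mice and 3222 and 6281 CPM in the HFD mice, so that it moved with the groups, and its part in the results was not tested.

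The targeted locus was read first. Cdkn1a stood at 1.32 and 2.18 CPM in the SD mice and 12.4 and 9.48 in the HFD mice, a log2 fold change of 2.21 (SE 0.38, adjusted p = 0.00411) in edgeR, with p adjusted by Benjamini-Hochberg over all genes tested. The HFD mice were both above the SD mice. Tert, which none of these 4 mice carried as a transgene, stood at 3.36 and 3.62 CPM in the SD mice and 3.43 and 3.87 in the HFD mice and did not pass the test (adjusted p = 0.328). mCherry had 0 and 1 UMIs in the SD mice and 13 and 0 in the HFD mice, which is too few to read a difference.

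In the whole tissue, genes of adipocytes fell and genes of lipid-laden macrophages rose with the high-fat diet. Of 22678 genes tested, 8964 (39.5%) passed an adjusted p of 0.05, with 5026 higher (22.2%) and 3938 lower (17.4%) in the HFD mice. All 11 adipocyte markers tested were lower, with a median log2 fold change of -2.67 against 0.06 over all genes. Of 19 genes of lipid-associated macrophages 16 were higher and 0 lower, with a median of 3.78. In these sums over barcodes of at least 1000 UMIs, fewer cells of a type and less RNA per cell cannot be told apart. The p-values measure the spread between mice within the 4 groups of the fit, 2 mice each, which include the Tert and TertCi mice. In a fit of the 4 mCherry libraries alone 8669 genes were called, 4938 higher and 3731 lower. Scaling by library totals in place of TMM moved the median over all genes to 0.49 and the share of higher genes among those called from 56.1% to 78.9%. The number called was 3498 without rep128, 5196 without rep144, 5814 without rep129 and 7122 without rep146, of which 3552 were higher and 3570 lower.

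The adipocyte markers show the size of the fall. Ghr, the growth hormone receptor, stood at 13053 and 10389 CPM in the SD mice and 882 and 1400.3 in the HFD mice, a log2 fold change of -3.81 (SE 0.44, adjusted p = 9.78e-04). Cidec, which fuses lipid droplets, stood at 662 and 951 CPM in the SD mice and 90.8 and 84.8 in the HFD mice. The fall of Cidec was 3.62 on the log2 scale (SE 0.23, edgeR adjusted p = 1.02e-04). For both genes the highest HFD mouse lay far below the lowest SD mouse. Plin1, the coat protein of the adipocyte droplet, went from 269 ± 68.9 CPM (standard deviation, n = 2) on the standard diet to 56.8 ± 0.484 CPM (standard deviation, n = 2) on the high-fat diet. Leptin (Lep), the satiety hormone of adipocytes, stood at 133 and 101 CPM in the SD mice and 32.8 and 32.8 in the HFD mice (log2 fold change -2.29, adjusted p = 0.0132 by edgeR), and the call was lost in fits that leave out 1 mouse by Lep (without rep144, rep128 or rep129, at up to 0.0828). Summed over the 11 markers, the level was 17075 and 15339 CPM in the SD mice and 1998 and 2446 CPM in the HFD mice.

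Among single genes, Gpnmb, a transmembrane glycoprotein of lipid-laden macrophages, stood at 11.7 and 10.7 CPM in the SD mice and 935 and 803 in the HFD mice, a log2 fold change of 5.83 (SE 0.21, adjusted p = 3.68e-05) by edgeR. Mmp12, the macrophage elastase, stood at 7.22 and 9.28 CPM in the SD mice and 491 and 419 in the HFD mice. Lgals3, which encodes galectin-3, stood at 28.2 and 44.9 CPM in the SD mice and 723 and 626 in the HFD mice. In each of these genes both HFD mice were many times above both SD mice. By the rule for named genes, which takes the largest changes with both HFD mice on 1 side of both SD mice, Gpnmb was joined by Myh15 (6.99), a myosin heavy chain, Rgs1 (6.51), a regulator of G-protein signalling, Hmga2 (6.0), a chromatin protein, Olfr111 (5.87), an olfactory receptor of a family whose copies can share reads, Amelx (5.78) and Degs2 (5.68), all as log2 fold changes. The same rule took Adam7, Adam28 and Lipc, which stood at 131, 98.7 and 142 CPM in rep128 but at 1.40, 0.801 and 2.87 CPM in rep129. Their calls were lost when 1 mouse was left out, with the adjusted p given in brackets: Adam7 (without rep144, rep146 or rep128, at up to 0.104), Adam28 (without rep144, rep146 or rep128, at up to 0.347) and Lipc (without rep144, rep146 or rep128, at up to 0.127).

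Of the genes that fell furthest, Cyp2e1, a cytochrome P450 enzyme, stood at 199 and 304 CPM in the SD mice and 4.07 and 0.668 in the HFD mice (log2 fold change -6.95, edgeR adjusted p = 5.83e-04). Slc1a3, a glutamate transporter, went from 1322 and 1036 CPM to 24.8 and 40.2 CPM. Adrb3, the beta3-adrenergic receptor of adipocytes, went from 378 and 525 CPM to 11.4 and 13.9 CPM, a fall by 5.60 on the log2 scale. Cish, a target and feedback inhibitor of STAT5 signalling, went from 51.9 and 61.2 CPM to 1.79 and 2.54 CPM. These 4 genes were low in both HFD mice and high in both SD mice. Syt14 (-5.29) and Zyg11a (-5.28) fell by like amounts. Mdga2, Lgr5, Lsamp and Cntn4 were taken by the same rule but were far higher in rep146 than in the other 3 mice, with Lsamp at 1307 CPM there and 15.6 CPM in rep144. Their calls were lost by the same measure: Mdga2 (without rep128 or rep129, at up to 0.0770), Lgr5 (without rep146, rep128 or rep129, at up to 0.288), Lsamp (without rep146, rep128 or rep129, at up to 0.129) and Cntn4 (without rep146, rep128 or rep129, at up to 0.128).

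Metabolic gene lists of adipocytes moved with the markers in the whole tissue. Some markers are also members of these lists, namely Plin1, Plin4 and Cidec for droplets and Adrb3, Pnpla2 and Lipe for lipolysis. Of the genes tested, 9 of 16 for fatty acid synthesis, 12 of 15 for triglyceride synthesis and droplet coats, 12 of 13 for lipolysis and 11 of 13 for insulin signalling and glucose uptake were lower, with medians from -2.24 to -1.86. Over all genes 17.4% were lower. Pck1, which supplies glycerol for re-esterification in adipocytes, went from 209.7 and 278 CPM to 13.9 and 11.3 CPM. Irs1, an adaptor of the insulin receptor, went from 247 and 295 CPM to 43.2 and 55.6 CPM. The exception in the droplet list was Plin2, the droplet coat protein found in most cell types, which rose from 67.2 and 87.7 CPM to 678 and 569.6 CPM (log2 fold change 2.58). Outside the adipocyte lists, 15 of 16 cell-cycle genes, 14 of 17 lysosome genes, 8 of 16 chemokine genes and 6 of 9 antigen-presentation genes were higher, beside 22.2% of all genes. Mki67, a marker of dividing cells, stood at 1.68 and 2.73 CPM in the SD mice and 18.3 and 21 in the HFD mice. Top2a, which untangles replicated DNA, stood at 2.36 and 2.60 CPM in the SD mice and 24.4 and 20.9 in the HFD mice. Progenitor markers as a list did not move together (3 of 12 higher, median -0.06, which became 0.40 with library totals), nor did endothelial markers (0 of 10 called, median -0.19, which became 0.22).

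To separate composition from change within types, barcodes above a limit set per library, from 1712 to 4704 UMIs in these 4 mice, were taken as nuclei, clustered across all 8 libraries and named by marker genes. After removal of likely doublets there were 2546 and 2999 nuclei in the SD mice and 7433 and 2878 in the HFD mice. For 6 lineages, the CPM in a nucleus of another lineage's markers was divided by their median level in that lineage's own clusters. Markers that its own lineage shares were left out. A nucleus stayed in its class when this foreign-marker value was at most 15% for each other lineage, or when it held fewer than 2 such UMIs. Nuclei over that limit were counted as mixed. The mixed nuclei and those in clusters without a name are large groups, so that class shares describe only the nuclei with a clear identity.

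Adipocyte-like nuclei were rare and macrophage-like nuclei common on the high-fat diet. Adipocyte-like nuclei were 16.8% and 20.9% of nuclei in the SD mice and 1.33% and 0.764% in the HFD mice, a log2 fold change of -4.13 (SE 0.40, adjusted p = 1.39e-05) by edgeR on the nucleus counts, adjusted over 9 classes. Macrophage-like nuclei were 3.42% and 4.07% in the SD mice and 47.0% and 35.5% in the HFD mice, a log2 fold change of 3.46 (SE 0.34, adjusted p = 1.39e-05). In both classes the groups lay far apart. With a limit of 1000 UMIs in every library the macrophage value turned to -1.22 (adjusted p = 0.0563), when most barcodes of rep128 fell in clusters held by 1 library and had no name. It was 2.71 (adjusted p = 0.00234) with those clusters named, a setting chosen after seeing the data. Progenitor-like nuclei went from 4.74% ± 0.522 to 8.84% ± 1.30 (standard deviation, n = 2), a log2 fold change of 0.90 (SE 0.31, adjusted p = 0.0251), a call lost without rep144 (adjusted p = 0.0905), rep146 (0.183) or either TertCi mouse (0.0685). The progenitor value turned to -0.75 (adjusted p = 0.249) at 1000 UMIs in every library and to -0.82 (0.283) with the one-library clusters named, and was 0.33 (0.548) with TMM across classes. Endothelial-like nuclei went from 0.522% ± 0.0162 to 2.39% ± 0.728 (standard deviation, n = 2), a log2 fold change of 2.2 (SE 0.40, adjusted p = 8.85e-04). At 1000 UMIs in every library that call was lost (0.83, adjusted p = 0.298). In the whole tissue 0 of 10 endothelial markers were called, and Gpnmb stood at 1257 and 1127 CPM in endothelial-like nuclei of the HFD mice. The part of macrophage RNA in this share was not tested. Mural-like nuclei numbered 2 in each SD mouse and 14 and 16 in the HFD mice, a log2 fold change of 2.17 (SE 0.78, adjusted p = 0.0272), a call lost without rep144 (adjusted p = 0.0861), rep146 (0.127) or rep129 (0.124). It was also lost with TMM across classes (1.58, adjusted p = 0.0922) and at 1000 UMIs with the one-library clusters named (0.93, adjusted p = 0.249). With doublets kept the mural log2 fold change was 3.20 (adjusted p = 4.96e-04 by edgeR). Mesothelial-like nuclei were at 1.01% ± 0.398 and 1.34% ± 0.369 (standard deviation, n = 2), a log2 fold change of 0.39 (SE 0.59, adjusted p = 0.545). Mixed nuclei were 32.9% ± 0.745 on the standard diet and 37.9% ± 12.7 on the high-fat diet (standard deviation, n = 2). Mixed nuclei were not called, but were higher without rep128 (0.51, adjusted p = 0.0476) and lower at 1000 UMIs in every library (-1.27, adjusted p = 0.0479). Unnamed nuclei were 37.9% ± 1.55 and 4.45% ± 3.98 (standard deviation, n = 2), a log2 fold change of -3.07 (SE 0.65, adjusted p = 0.00194). That value turned to 2.29 (adjusted p = 0.0363) at 1000 UMIs in every library, and was -0.18 (adjusted p = 0.807) with the one-library clusters named. Nuclei of the remaining named clusters were 0.224% ± 0.128 and 2.41% ± 1.16 (standard deviation, n = 2), a log2 fold change of 3.42 (SE 0.57, adjusted p = 6.01e-04), and this call was lost at 1000 UMIs (0.74, adjusted p = 0.374). The largest unnamed cluster among SD nuclei, with 808 and 543 SD nuclei against 10 and 3 HFD nuclei, raised all 11 adipocyte markers together with the mesothelial markers.

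**Figure D1:**
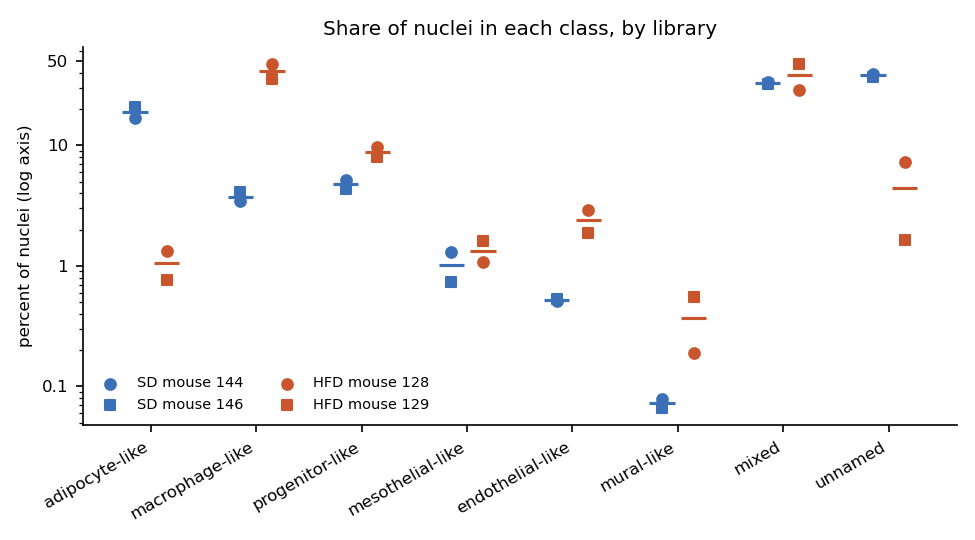
Share of nuclei in each class, in percent on a log axis, with 1 point per mouse (blue for SD, orange for HFD) and a bar at each group's mean. The HFD points lie below the SD points for adipocyte-like and unnamed nuclei and above them for the macrophage, progenitor, endothelial and mural classes, while mesothelial-like and mixed nuclei overlap.

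Adipocyte-like nuclei were first examined for their own markers. The class held 428 and 626 nuclei in the SD mice and 99 and 22 in the HFD mice, with median UMIs per nucleus of 3853 and 5690 in the SD mice and 12123 and 6269 in the HFD mice. Most SD nuclei of the class lay in cluster 5 (365 and 568) and most HFD nuclei in cluster 22 (78 and 17). Cluster 22 held 1 and 1 SD nuclei and cluster 5 held 12 and 4 HFD nuclei. Acacb and Nrg4 were among the leading genes of cluster 5 and Tph2 of cluster 22. Whether nuclei changed or other populations stood in their place within the class was not tested. Of 12976 genes tested in it, 2275 (17.5%) were called, 1384 higher (10.7%) and 891 lower (6.87%), and 154 were called without rep128, when the high-fat diet is read from 22 nuclei. With library totals 1696 were higher and 371 lower, which moved the higher share of calls from 60.8% to 82.1%. Without rep128 it was 71 higher and 83 lower. The libraries are those of the whole-tissue comparison, so the values that follow are not independent of it. Of the 11 adipocyte markers 3 were lower within the class, beside 6.87% of all genes tested. Their median log2 fold change was -0.49 against -0.01 over all genes tested. The clusters of the class were named by these same markers, so that clusters without them could not have entered it. Plin1 stood at 445 and 655 CPM in the SD mice and 1112 and 826 in the HFD mice (log2 fold change 0.53, adjusted p = 0.266 by edgeR). Cidec stood at 1387 and 1924 CPM in the SD mice and 1556 and 1008 in the HFD mice (log2 fold change -0.65, adjusted p = 0.138). Lep stood at 318 and 213 CPM in the SD mice and 524 and 422 in the HFD mice (log2 fold change 0.54, adjusted p = 0.302). None of these 3 passed the test within adipocyte-like nuclei, and for Plin1 and Lep both HFD values lay above both SD values, against the direction in the whole tissue. The 3 markers that fell were Adrb3, Ghr and Pparg.

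**Figure D2:**
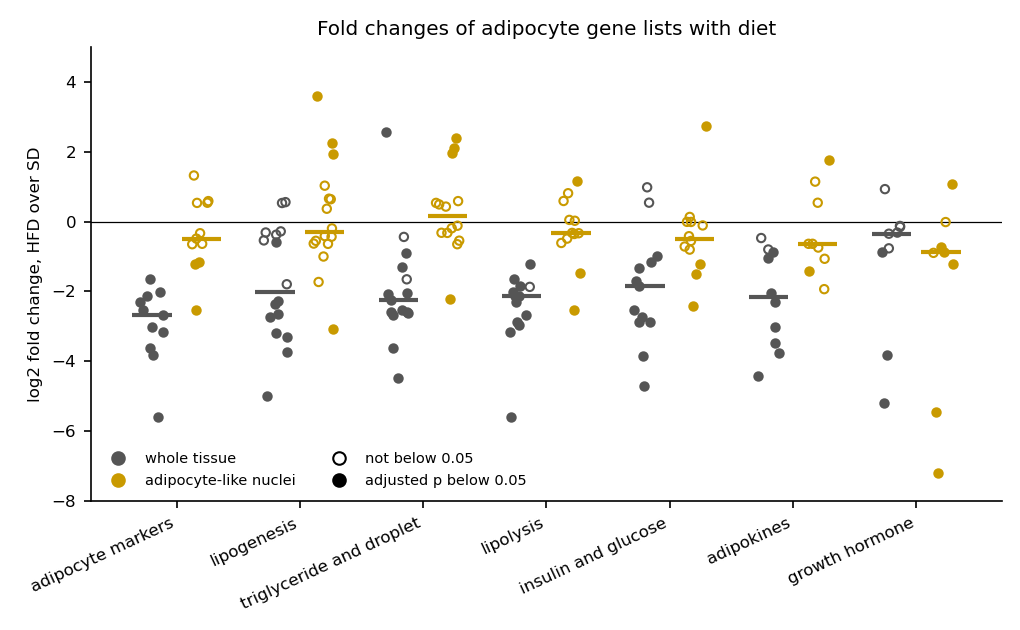
Log2 fold changes of HFD over SD for the genes of 7 adipocyte lists, in the whole tissue (grey) and in adipocyte-like nuclei (gold). Each point is a gene, filled where its adjusted p was below 0.05, and bars mark list medians, which lie nearer 0 in adipocyte-like nuclei for 6 of the 7 lists, the exception being growth hormone (-0.35 and -0.88).

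Adrb3, through which catecholamines drive lipolysis, stood at 802 and 978 CPM in the SD mice and 177 and 211 in the HFD mice in adipocyte-like nuclei, a log2 fold change of -2.54 (SE 0.22, adjusted p = 1.11e-04) by edgeR. It kept its call without any 1 of the 4 mice. Pparg, the master transcription factor of adipocytes, stood at 3710.0 and 2880.2 CPM in the SD mice and 2024 and 1629 in the HFD mice (log2 fold change -1.17, adjusted p = 0.0401). Ebf2, a factor of the adipocyte lineage, stood at 625 and 619 CPM in the SD mice and 175 and 247 in the HFD mice (log2 fold change -1.94, adjusted p = 4.83e-04). Ebf1 stood at 6251 and 6452 CPM in the SD mice and 3541 and 3909 in the HFD mice (log2 fold change -1.09, adjusted p = 0.00712). Thus 3 of the 10 adipogenic factors tested were lower in the class and 0 higher. Over all genes of the class 6.87% were lower and 10.7% higher. Prdm16, a regulator of the beige adipocyte program, stood at 37.2 and 29.8 CPM in the SD mice and 139.9 and 127 in the HFD mice (log2 fold change 1.73, adjusted p = 0.00915), higher in both HFD mice. It was the 1 gene called of 4 tested in the thermogenic list, beside 17.5% of all genes of the class. The median of the list was 0.15. In the whole tissue Prdm16 was lower, at 22.4 and 29.3 CPM in the SD mice and 20.2 and 14.4 in the HFD mice (adjusted p = 0.0157), as were Ppargc1a, Ppargc1b and Kcnk3 of the 7 genes tested there, and Cox7a1 was higher. Over all genes there 17.4% were lower and 22.2% higher. By library totals without TMM Prdm16 was not called there, nor was Cox7a1 by DESeq2. Whole-tissue calls lost without 1 mouse were those of Prdm16 (without rep129, at 0.0797) and Cox7a1 (without any of the 4, at up to 0.114). Calls were lost, in fits that leave out 1 mouse, by Pparg (without rep144, rep128 or rep129, at up to 0.175), Ebf1 (without rep128, at 0.0797) and Prdm16 (without rep146 or rep128, at up to 0.242), with the adjusted p in brackets.

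Genes of growth hormone signalling moved in both directions within the class. Growth hormone binds its receptor Ghr, which activates the kinase JAK2 and the transcription factors STAT5A and STAT5B. STAT5 then induces Cish, Socs2 and Igf1 and is known to repress Bcl6. Over all genes of the class 6.87% were lower and 10.7% higher, and 17.4% were lower in the whole tissue. Of the 8 genes tested in adipocyte-like nuclei 5 were lower and 1 higher, with a median of -0.88. In the whole tissue 3 of 9 were lower, with a median of -0.35 that became 0.08 with library totals. The difference between these medians was not tested, and Ghr itself fell less within the class than in the whole tissue (-1.21 and -3.81 on the log2 scale). Ghr stood at 27643 and 22239 CPM in the SD mice and 12211 and 15022 in the HFD mice, a log2 fold change of -1.21 (SE 0.25, adjusted p = 0.00830) by edgeR. Jak2 went from 66.6 and 71.5 CPM to 51.2 and 30.2 CPM (adjusted p = 0.0437). Stat5b went from 172 and 191 CPM to 136.3 and 133 CPM (adjusted p = 0.0282). Stat5a overlapped between the groups. Cish stood at 87.2 and 101 CPM in the SD mice and 2.88 and 0 in the HFD mice, a log2 fold change of -5.46 (SE 0.63, adjusted p = 4.72e-04). The HFD values rest on 4 and 0 UMIs against 178 and 431 in the SD mice. Socs2, another feedback inhibitor of the receptor, had 15 and 20 UMIs in the SD mice and 0 in both HFD mice, at least 3.11-fold lower against a floor of 3 UMIs over the HFD group. Bcl6, a transcriptional repressor, stood at 137 and 125 CPM in the SD mice and 329 and 368 in the HFD mice, a log2 fold change of 1.09 (SE 0.23, adjusted p = 0.00859). Igf1 stood at 724 and 764 CPM in the SD mice and 402 and 627 in the HFD mice and did not pass (adjusted p = 0.140). Calls were lost, in fits that leave out 1 mouse, by Ghr (without rep128, at 0.105), Jak2 (without any of the 4, at up to 0.117), Stat5b (without any of the 4, at up to 0.159), Cish (without rep128, at 0.0533), Socs2 (without rep144 or rep128, at up to 0.439) and Bcl6 (without rep146 or rep128, at up to 0.124).

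The promoters of Cish and Bcl6 are shown because these STAT5 targets moved in opposite directions. STAT5 dimers bind the palindrome TTCNNNGAA, in which N is any base, so that 1 search covers both strands. The motif was searched in RefSeq promoters of GRCm38.p6, from 250 bases before to 50 bases after each start, and 8 of the 9 genes of the list are in that table, Socs2 being the other. At least 1 match was found in 2726 of 32851 promoters (8.30%), at least 2 in 150 (0.457%) and at least 3 in 11 (0.0335%). The Cish promoter at chr9:107296409-107296708 on the plus strand held 2 matches, and the Bcl6 promoters on the minus strand held 3 at chr16:23981234-23981533 and 1 at chr16:23988803-23989102. Socs3 held 1, and Ghr, Igf1, Jak2, Stat5a and Stat5b held 0 in these windows. Capitals mark the matches, which describe the letters of the sequence and not binding.
Cish: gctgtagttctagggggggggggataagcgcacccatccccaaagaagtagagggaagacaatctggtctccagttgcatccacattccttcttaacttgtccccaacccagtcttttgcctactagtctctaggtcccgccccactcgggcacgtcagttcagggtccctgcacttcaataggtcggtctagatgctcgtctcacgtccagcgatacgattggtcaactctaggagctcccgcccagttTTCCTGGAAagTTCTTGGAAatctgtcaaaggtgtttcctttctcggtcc
Bcl6, start 1: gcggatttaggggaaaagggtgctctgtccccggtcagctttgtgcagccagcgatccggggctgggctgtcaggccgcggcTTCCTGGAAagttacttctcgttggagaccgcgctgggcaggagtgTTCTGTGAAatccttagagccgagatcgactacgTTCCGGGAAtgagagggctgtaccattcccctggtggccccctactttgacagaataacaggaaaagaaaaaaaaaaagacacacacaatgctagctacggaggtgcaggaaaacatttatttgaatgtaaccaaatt
Bcl6, start 2: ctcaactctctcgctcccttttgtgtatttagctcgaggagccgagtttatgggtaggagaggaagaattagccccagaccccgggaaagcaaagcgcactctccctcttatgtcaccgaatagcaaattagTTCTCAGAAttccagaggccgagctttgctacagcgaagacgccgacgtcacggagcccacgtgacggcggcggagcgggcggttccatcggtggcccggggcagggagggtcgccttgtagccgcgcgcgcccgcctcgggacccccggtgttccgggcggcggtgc
The matches of Cish lie 0 and 11 bases from the start and those of the first Bcl6 promoter 168, 122 and 88 bases before it.

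**Figure D3:**
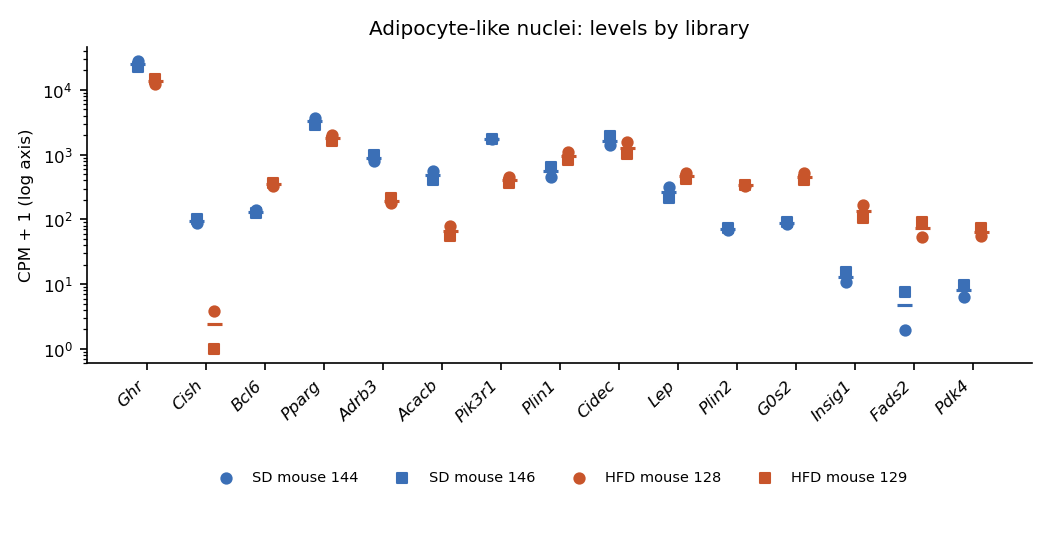
Levels of 15 genes in adipocyte-like nuclei, as CPM + 1 on a log axis, with 1 point per mouse and a bar at each group's mean. Ghr, Cish, Pparg, Adrb3, Acacb and Pik3r1 are lower and Bcl6, Plin2, G0s2, Insig1, Fads2 and Pdk4 higher in both HFD mice, while Cidec overlaps.

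Most insulin signalling and lipolysis genes did not pass the test in adipocyte-like nuclei. Pik3r1, the regulatory subunit of the kinase that carries the insulin signal, stood at 1775 and 1740.3 CPM in the SD mice and 447 and 362 in the HFD mice, a log2 fold change of -2.40 (SE 0.24, adjusted p = 2.14e-04) by edgeR. Pde3b, the phosphodiesterase through which insulin restrains lipolysis, stood at 1666 and 2426 CPM in the SD mice and 1099.7 and 688 in the HFD mice (log2 fold change -1.46, adjusted p = 0.00764). Irs1 went from 386 and 510.1 CPM to 213 and 284 CPM. Pck1 went from 389 and 556 CPM to 234 and 151 CPM. Pdk4, which blocks the oxidation of pyruvate, was higher, at 5.39 and 8.68 CPM in the SD mice and 54.1 and 72.4 in the HFD mice (log2 fold change 2.73, adjusted p = 0.0381). Of 12 genes tested for insulin signalling 3 were lower and 1 higher, and of 12 for lipolysis 2 were lower (Adrb3 and Pde3b) and 1 higher (Adora1), beside 17.5% called over all genes of the class. Adora1, the adenosine receptor that restrains lipolysis, stood at 29.9 and 32.1 CPM in the SD mice and 90.1 and 72.4 in the HFD mice. Pik3r1 and Pde3b kept their calls without any 1 of the 4 mice. The other calls were lost when 1 mouse was left out: Irs1 (without rep128, at 0.0836), Pck1 (without any of the 4, at up to 0.135), Pdk4 (without any of the 4, at up to 0.313) and Adora1 (without rep144, rep146 or rep128, at up to 0.427).

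Lipid synthesis genes did not fall together in the class. Of 16 fatty acid synthesis genes 3 were higher and 1 lower, beside 17.5% called over all genes of the class. Their median of -0.31 became 0.01 with library totals. Acacb, the carboxylase that makes malonyl-CoA at mitochondria, was the gene that fell, at 567 and 404 CPM in the SD mice and 77.2 and 54.3 in the HFD mice (log2 fold change -3.07, adjusted p = 3.23e-04 by edgeR). Slc25a1, Scd2 and Fads2 were higher, with Fads2, a fatty acid desaturase, at 0.979 and 6.57 CPM in the SD mice and 53.4 and 90.5 in the HFD mice (log2 fold change 3.6, adjusted p = 0.00830). The droplet list had Plin2, Plin5 and G0s2 higher and Mogat1 lower among 14 tested. Plin2 stood at 66.6 and 73.4 CPM in the SD mice and 333 and 344 in the HFD mice (log2 fold change 1.96, adjusted p = 0.00109). G0s2, the inhibitor of the main triglyceride lipase, stood at 85.2 and 90.1 CPM in the SD mice and 515 and 404 in the HFD mice (log2 fold change 2.11, adjusted p = 3.23e-04). In cholesterol metabolism, Insig1, the sterol sensor that holds back cholesterol synthesis, went from 9.79 and 14.3 CPM to 165 and 103 CPM (log2 fold change 3.25, adjusted p = 3.23e-04). The synthetic enzymes Hmgcs1 and Lss rose by 1.25 and 2.28 on the log2 scale, while the lipoprotein receptor Scarb1 fell by 1.36. Acacb, Plin2, G0s2 and Insig1 kept their calls without any 1 of the 4 mice. The other calls were lost when 1 mouse was left out: Fads2 (without rep128, at 0.118), Slc25a1 (without rep144 or rep128, at up to 0.652), Scd2 (without any of the 4, at up to 0.377), Plin5 (without any of the 4, at up to 0.360), Mogat1 (without rep144 or rep128, at up to 0.473), Hmgcs1 (without rep128, at 0.119), Lss (without any of the 4, at up to 0.444) and Scarb1 (without rep128, at 0.174).

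A secreted factor and some matrix genes also differed in adipocyte-like nuclei. Nrg4, a growth factor of adipocytes that acts on the liver, stood at 1297 and 1244 CPM in the SD mice and 715 and 422 in the HFD mice (log2 fold change -1.42, adjusted p = 0.00560 by edgeR). Of 20 matrix genes tested 5 were higher (Col1a1, Col4a1, Col4a2, Col6a1 and Col6a2), 0 were lower and 15 were not called, beside 10.7% higher over all genes of the class. Col6a2 went from 8.32 and 11.0 CPM to 77.9 and 54.3 CPM. Col6a1 went from 13.7 and 25.1 CPM to 65.6 and 121 CPM. By the rule for named genes, the largest falls in the class included Gulp1, an adaptor of engulfment receptors, which went from 990.0 and 607 CPM to 29.6 and 36.2 CPM. The largest rises included Olr1, the scavenger receptor for oxidised LDL, with 0 UMIs in both SD mice and 33 and 3 UMIs in the HFD mice, at least 44.0-fold higher. Tph2, an enzyme of serotonin synthesis, had 1 and 4 UMIs in the SD mice and 125 and 18 in the HFD mice. Zfp804b, with 56 UMIs in rep128 and 1 in rep129, was also a leading gene of an unnamed cluster, led by epididymal genes such as Lcn8, whose nuclei all came from rep128. Without 1 mouse the calls lost were those of Col1a1 (without rep144, rep146 or rep128, at up to 0.383), Col4a1 (without rep144, rep128 or rep129, at up to 0.219), Col4a2 (without rep144 or rep128, at up to 0.253), Col6a1 (without rep128, at 0.0551), Col6a2 (without rep128, at 0.0778), Gulp1 (without rep144, rep128 or rep129, at up to 0.194), Olr1 (without rep128, at 0.106), Zfp804b (without rep128, at 0.577), Cav3 (without rep128, at 0.140), Egfros (without rep128, at 0.0804), Ncam2 (without rep128, at 0.210), Slc43a1 (without rep128, at 0.147) and Eva1c (without rep128, at 0.230). The rule also took Cav3, Acss2os, Egfros, Ncam2, Slc43a1 and Eva1c. Egfros, at 0 and 4.46 CPM in the SD mice and 112 and 217 in the HFD mice, was also a leading gene of 2 progenitor-like clusters, of which the first held 879 and 257 nuclei of the HFD mice against 2 and 1 of the SD mice and the other 642 and 238 against 1 and 5. It stood at 301 and 293 CPM in progenitor-like nuclei and at 35.3 and 66.7 CPM in barcodes under 500 UMIs of the HFD mice, and the part of that RNA in its rise was not tested. Acss2os and Egfros are antisense transcripts, and overlap of their reads with those of their partners was not tested.

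Genes listed for other cell types also moved with the groups inside the adipocyte class. Of 16 lipid-associated macrophage genes tested there, 12 were higher and 0 lower, beside 10.7% higher over all genes of the class. Plin2, which is also in the droplet list, is among the 12. Gpnmb stood at 4.41 and 1.88 CPM in the SD mice and 77.9 and 121 in the HFD mice in adipocyte-like nuclei. In barcodes under 500 UMIs, which hold mostly free RNA, Gpnmb stood at 14.8 and 11.5 CPM in the SD mice and 1168 and 1039 CPM in the HFD mice. Lower genes were 6.87% of all genes tested in the class. Of the mesothelial markers 2 of 3 tested were lower (Gpm6a and Wt1, median -2.94), as were the progenitor marker Dpp4 and the B-cell marker Bank1. Ebf1, the other lower gene of 3 tested in the B-cell list, is also in the list of adipogenic factors. Its fall, given above, is not read here as RNA of another cell type. Gpm6a, Wt1 and Dpp4 turned higher without the foreign-marker limit. Gpm6a stood at 23.5 and 13.4 CPM in the SD mice and 2.88 and 0 in the HFD mice and Wt1 at 12.7 and 12.0 CPM in the SD mice and 2.16 and 0 in the HFD mice. Calls lost without 1 mouse were those of Gpm6a (without rep128, at 0.221), Wt1 (without any of the 4, at up to 0.300), Dpp4 (without any of the 4, at up to 0.216), Bank1 (without rep128, at 0.422) and Ebf1 (without rep128, at 0.0797). Col1a1, called higher in the class, stood in barcodes under 500 UMIs at 54.4 and 58.3 CPM in the SD mice and 626 and 526 in the HFD mice. Col6a2 stood there at 34.2 and 57.4 CPM and at 142 and 125. The part of this RNA in the changes of the class was not tested. For Plin2 the same barcodes held 915 and 679.5 CPM in the HFD mice, above its level in adipocyte-like nuclei, and the part of free RNA in its rise there was not tested. G0s2 stood in those barcodes at 123 and 193 CPM and Bcl6 at 79.1 and 162 CPM in the HFD mice, both below adipocyte-like nuclei. Of the 1384 genes higher in the class, 573 had their highest level of the 4 tested classes in adipocyte-like nuclei of both HFD mice, and of the 891 lower genes 301 did so in both SD mice.

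Gene levels in macrophage-like nuclei also differed between diets, beside their share, which turned to -1.22 at 1000 UMIs in every library. Clusters 0, 8 and 11 of the class held 0 SD nuclei. Whether nuclei changed or other populations stood in their place was not tested. The class held 87 and 122 nuclei in the SD mice and 3491 and 1021 in the HFD mice, with the SD nuclei mostly in cluster 1 (79 and 111) and the HFD nuclei in clusters 0 (1703 and 373), 8 (964 and 360) and 11 (791 and 252). Of 12740 genes tested 2640 (20.7%) were called, 1490 higher (11.7%) and 1150 lower (9.03%), and the number was 1454 without rep144, 1037 without rep146 and 1228 without rep128. It was 1717 higher and 796 lower with library totals, and 979 higher and 1054 lower by DESeq2. The lower genes also outnumbered the higher ones without rep144 (680 higher, 774 lower) and without rep146 (460 higher, 577 lower). The SD values rest on 288840 and 581135 UMIs and the HFD values on 25862338 and 3562161. Of 12 general macrophage markers, by which the class was named, 3 were higher (Cd68, Ctss and Trem2) and 2 lower (Mrc1 and F13a1). Csf1r, the receptor for the growth factor of macrophages, and Adgre1, which encodes F4/80, did not pass the test (adjusted p = 0.738 and 0.123). Csf1r stood at 235 and 246 CPM in the SD mice and 237 and 250.1 in the HFD mice. Adgre1 stood at 578 and 625 CPM in the SD mice and 856 and 884 in the HFD mice.

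Genes of lipid-associated macrophages were higher within the class in 17 of 19 cases and lower in 0, beside 11.7% higher over all genes tested. Their median was 3.38, or 3.00 with genes at 0 UMIs in the SD mice taken at their lower bound. Gpnmb stood at 48.5 and 12.0 CPM in the SD mice and 1662 and 1300.1 in the HFD mice, a log2 fold change of 5.74 (SE 0.49, adjusted p = 1.92e-04) by edgeR. Trem2, the lipid receptor that switches on this program, stood at 6.92 and 5.16 CPM in the SD mice and 118 and 89.3 in the HFD mice (log2 fold change 4.03, adjusted p = 8.36e-06). Atp6v0d2, a subunit of the lysosomal proton pump, stood at 41.5 and 34.4 CPM in the SD mice and 1239 and 1188 in the HFD mice (log2 fold change 4.89, adjusted p = 1.96e-04). In all 3 both HFD mice were far above both SD mice, and the SD level of Trem2 rests on 2 and 3 UMIs. Gpnmb was also high in HFD barcodes under 500 UMIs, and the part of free RNA in its rise here was not tested. Lpl, which releases fatty acids from lipoproteins, went from 118 and 146.3 CPM to 1219 and 1012 CPM. Lgals3 went from 121 and 124 CPM to 1166 and 1007 CPM. Lipa, the lysosomal acid lipase, went from 107 and 87.8 CPM to 485 and 399 CPM. Fabp5, a fatty acid carrier, and Spp1, osteopontin, had 0 UMIs in both SD mice and were at least 10.2-fold and 3.93-fold higher. Both are in the count of 17, though a fall of them could not have been seen. Fabp4, the adipocyte fatty acid carrier that macrophages also express, did not pass (adjusted p = 0.557). Gpnmb, Trem2, Lgals3, Lpl, Lipa, Mmp12, Plin2, Atp6v0d2 and Fabp5 kept their calls without any 1 of the 4 mice, whereas a call was lost by Spp1 (without rep146, rep128 or rep129, at up to 0.169).

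**Figure D4:**
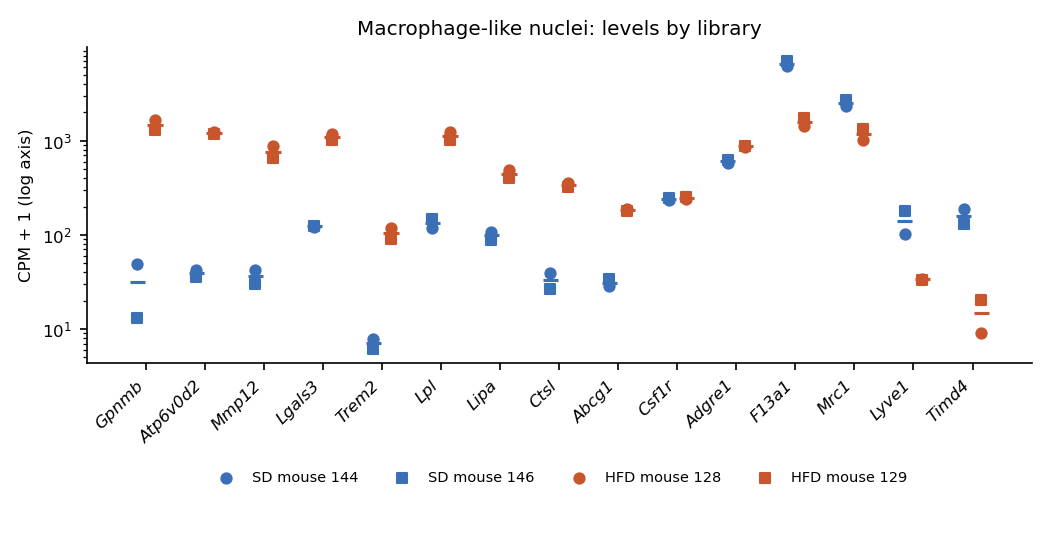
Levels of 15 genes in macrophage-like nuclei, as CPM + 1 on a log axis, with 1 point per mouse and a bar at each group's mean. From Gpnmb to Abcg1 both HFD mice lie above both SD mice, Csf1r overlaps, Adgre1 differs little, and F13a1, Mrc1, Lyve1 and Timd4 are lower in both HFD mice.

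Lysosomal genes were also higher in macrophage-like nuclei, and cholesterol genes moved in both directions. In the lysosome list 11 of 17 genes were higher and 0 lower, beside 11.7% higher and 9.03% lower over all genes of the class. Ctsl, a protease, stood at 38.1 and 25.8 CPM in the SD mice and 355 and 318 in the HFD mice (log2 fold change 3.33, adjusted p = 8.21e-07 by edgeR). Ctsd, another protease, stood at 17.3 and 17.2 CPM in the SD mice and 156 and 133 in the HFD mice (log2 fold change 2.93, adjusted p = 5.50e-06). Among 13 cholesterol genes 5 were higher, 2 (Msr1 and Abca1) lower and 6 not called. Abcg1, which exports cholesterol to HDL, rose from 27.7 and 32.7 CPM to 188 and 177 CPM (log2 fold change 2.43, adjusted p = 1.92e-05). Abca1, which exports it to lipid-poor apolipoprotein, stood at 592 and 704 CPM in the SD mice and 496 and 529 in the HFD mice (log2 fold change -0.49, adjusted p = 0.0383), a call also lost with library totals. Pparg, which also drives lipid handling in macrophages, stood at 190.4 and 205 CPM in the SD mice and 562 and 490.1 in the HFD mice (log2 fold change 1.26, adjusted p = 0.0141), against a fall in adipocyte-like nuclei, and the difference between the classes was not tested. Calls lost when 1 mouse was left out were those of Abca1 (without any of the 4, at up to 0.215) and Pparg (without rep144 or rep146, at up to 0.163).

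Genes of resident macrophages fell within the class, 7 of 11 lower and 0 higher with a median of -1.28. Over all genes of the class 9.03% were lower and 11.7% higher. In the whole tissue 2 of these 11 genes were higher and 1 lower, beside 22.2% and 17.4% of all genes. Their median of -0.09 there became 0.37 with library totals. F13a1, the coagulation factor XIII subunit of resident macrophages, stood at 6225 and 6933 CPM in the SD mice and 1419.8 and 1731 in the HFD mice, a log2 fold change of -2.21 (SE 0.32, adjusted p = 0.00220) by edgeR. Mrc1, the mannose receptor CD206, stood at 2340.4 and 2698 CPM in the SD mice and 1015 and 1328 in the HFD mice (log2 fold change -1.25, adjusted p = 4.88e-04). Timd4, a receptor for apoptotic cells, went from 187 and 129.1 CPM to 8.08 and 19.4 CPM. Lyve1, the hyaluronan receptor of perivascular macrophages, went from 100.4 and 179 CPM to 32.9 and 32.6 CPM. Both HFD mice lay below both SD mice in each of these 4 genes. The count of lower genes was 1 without rep146, 3 without rep144 and 4 without rep128. Mrc1 kept its call without any 1 of the 4 mice, and calls were lost by F13a1 (without rep146, at 0.0643), Timd4 (without rep144 or rep146, at up to 0.0903) and Lyve1 (without rep146 or rep128, at up to 0.207). The whole-tissue level of F13a1, at 1000.5 and 819 CPM in the SD mice and 779 and 831 in the HFD mice, overlapped between the groups.

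H2-Aa, an MHC class II chain, stood at 100.4 and 160.0 CPM in the SD mice and 162 and 138.4 in the HFD mice and did not pass (adjusted p = 0.988 by edgeR). Of 9 antigen-presentation genes 2 were called, beside 20.7% of all genes of the class, namely the costimulatory molecules Cd86 and Cd80, both lower. In the whole tissue 6 of 9 were higher, beside 22.2% of all genes, and the difference was not tested. Cd86 stood at 443 and 237 CPM in the SD mice and 89.9 and 89.3 in the HFD mice. Cd80 stood at 48.5 and 60.2 CPM in the SD mice and 23.7 and 30.6 in the HFD mice. Cell-cycle genes had few or no UMIs in the class on the standard diet, so that a fall could not have been seen and no count of them is given. Top2a had 1 and 2 UMIs in the SD mice and 1137 and 93 in the HFD mice. Mki67 had 0 and 2 against 842 and 120, which is 32.6 and 33.7 CPM on the high-fat diet. Cdkn1a, which marks the locus of the mCherry allele, had 0 UMIs in both SD mice and 387 and 43 in the HFD mice, at least 3.92-fold higher. Cdkn2b and Gdf15, another CDK inhibitor and a p53 target, were at least 2.05-fold and 2.80-fold higher by the same floor of 3 UMIs. Calls lost when 1 mouse was left out were those of Cd86 (without rep144, rep128 or rep129, at up to 0.113), Cd80 (without rep146 or rep128, at up to 0.191), Cdkn1a (without rep144, rep146 or rep128, at up to 0.191), Cdkn2b (without rep144 or rep146, at up to 0.302, and not fitted without rep128 or rep129), Gdf15 (without rep144 or rep146, at up to 0.194, and not fitted without rep128) and Top2a (without rep146, at 0.0990). Cdkn1a outside the class stood at 0.490 and 1.64 against 8.65 and 12.1 CPM in adipocyte-like nuclei (adjusted p = 0.0560) and was too rare to be tested in progenitor-like nuclei.

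The largest changes of the class by the rule for named genes were genes with 0 UMIs in both SD mice. They were Myh15 (132 and 109.8 CPM in the HFD mice, at least 35.1-fold higher), Dlgap2 (34.2-fold), Dhrs9, a retinol dehydrogenase (27.2-fold), Olfr111 (22.4-fold), Galnt12, a glycosyltransferase (13.5-fold), and the antisense transcript Plxna4os3 (11.1-fold), all as lower bounds. The largest falls were in genes of other cells. Adrb3 stood at 6.92 and 65.4 CPM in the SD mice and 1.16 and 1.97 in the HFD mice in macrophage-like nuclei. Cyp2e1 stood at 10.4 and 60.2 CPM in the SD mice and 0.696 and 0.561 in the HFD mice. Slc1a3, Lsamp, Lgals12 and Trhde were also taken. These genes were also high in SD barcodes under 500 UMIs, where Adrb3 stood at 209 and 703 CPM and Cyp2e1 at 216 and 439.6 CPM. Calls lost when 1 mouse was left out were those of Plxna4os3 (without rep146, at 0.110), Adrb3 (without rep146, at 0.295), Cyp2e1 (without rep146, at 0.0639), Slc1a3 (without rep146, at 0.0547), Lsamp (without rep146 or rep128, at up to 0.534), Lgals12 (without rep146, at 0.328) and Ghr (without rep144 or rep146, at up to 0.228). Of the 11 adipocyte markers 6 were lower and 1 (Pparg) higher in macrophage-like nuclei, with Ghr at 640.5 and 1048 CPM in the SD mice and 45.6 and 150.2 in the HFD mice. The part of adipocyte RNA in the SD libraries in these falls was not tested. Over all genes of the class 9.03% were lower and 11.7% higher. Of the 1490 higher genes 796, and of the 1150 lower genes 521, had their highest level of the 4 tested classes in macrophage-like nuclei of both mice of the higher group.

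Genes of the extracellular matrix were higher in progenitor-like nuclei, and some of them also in other classes. The class held 130 and 131 nuclei in the SD mice and 725 and 228 in the HFD mice. SD nuclei lay mostly in clusters 4 (56 and 46) and 7 (58 and 57). HFD nuclei lay mostly in clusters 7 (362 and 122) and 13 (265 and 79). Cluster 13, with Col1a1 among its leading genes, held 1 and 3 SD nuclei of the class. Whether nuclei changed or other populations stood in their place was not tested. Of 9908 genes tested 856 (8.64%) were called, 564 higher (5.69%) and 292 lower (2.95%), with 305 without rep144, 228 without rep146, 238 without rep128 and 493 without rep129. With library totals 754 of 892 calls were higher, which moved the higher share of calls from 65.9% to 84.5%. Without rep146 it was 109 higher and 119 lower. Of 24 matrix genes 9 were higher and 0 lower, with a median of 0.65 against 0.00 over all genes. Col3a1, a fibrillar collagen, stood at 865 and 727 CPM in the SD mice and 2184 and 2247 in the HFD mice, a log2 fold change of 1.27 (SE 0.21, adjusted p = 0.00258) by edgeR. Col1a1, the main fibrillar collagen, stood at 97.9 and 66.0 CPM in the SD mice and 356 and 231 in the HFD mice (log2 fold change 1.69, adjusted p = 0.00789). Postn, the matricellular protein periostin, stood at 141 and 158 CPM in the SD mice and 621 and 518 in the HFD mice (log2 fold change 1.74, adjusted p = 0.00460). In each both HFD mice lay above both SD mice. Timp1, an inhibitor of matrix proteases, had 3 and 2 UMIs in the SD mice and 168 and 30 in the HFD mice. Tnc, tenascin-C, had 0 UMIs in both SD mice and was at least 9.46-fold higher. Timp1 and Tnc are among the 9 higher genes, though a fall of them could not have been seen. Col1a2, Col4a1, Bgn and Mmp2 were also called, with log2 fold changes from 0.70 to 1.29. Fn1, which encodes fibronectin, stood at 640.0 and 624 CPM in the SD mice and 1418 and 1253 in the HFD mice without a call (adjusted p = 0.196).

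**Figure D5:**
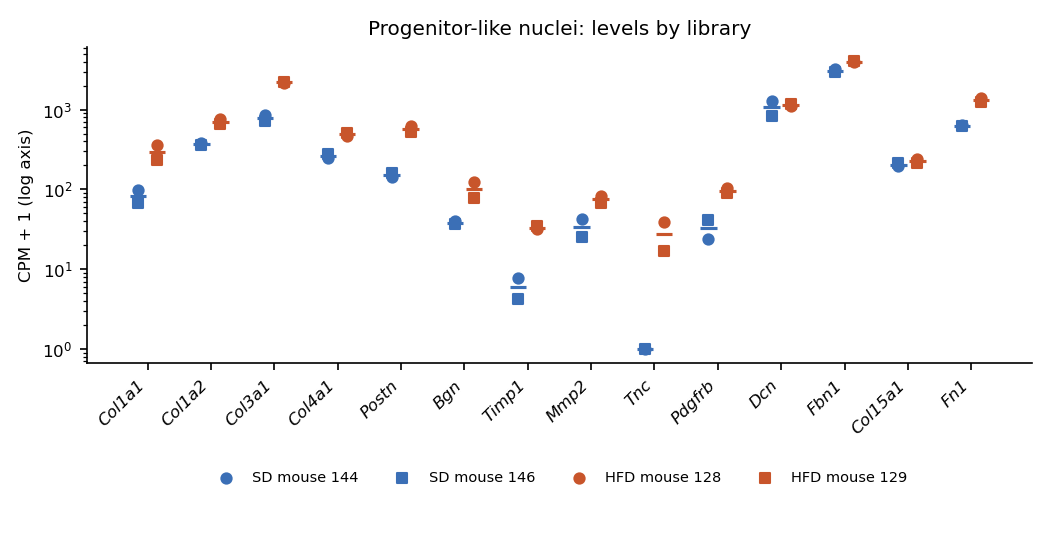
Levels of 14 genes in progenitor-like nuclei, as CPM + 1 on a log axis, with 1 point per mouse and a bar at each group's mean. Collagens, Postn, Bgn, Timp1, Mmp2, Tnc and Pdgfrb lie higher in both HFD mice, while Dcn and Col15a1 overlap.

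In macrophage-like nuclei 7 of 19 matrix genes were also higher (Col1a1, Col1a2, Col3a1, Sparc, Bgn, Lum and Postn), 0 were lower and 12 were not called. Over all genes of that class 11.7% were higher and 9.03% lower. Col1a2 was also higher in mesothelial-like nuclei. In barcodes under 500 UMIs Col3a1 stood at 374 and 372 CPM in the SD mice and 1898 and 1612 in the HFD mice. Col1a1 stood there at 54.4 and 58.3 CPM and at 626 and 526, above its level in progenitor-like nuclei of the HFD mice. The part of free RNA in these rises was not tested. Of the matrix genes in progenitor-like nuclei Col3a1 kept its call without any 1 of the 4 mice. The other calls were lost when 1 mouse was left out: Col1a1 (without rep146, at 0.0864), Col1a2 (without rep144, rep146 or rep128, at up to 0.201), Col4a1 (without any of the 4, at up to 0.189), Bgn (without rep144, rep146 or rep128, at up to 0.276), Postn (without rep144 or rep146, at up to 0.0638), Tnc (without rep146 or rep128, at up to 0.122), Timp1 (without rep146 or rep128, at up to 0.153) and Mmp2 (without any of the 4, at up to 0.386). Dpp4, a marker of uncommitted progenitors, overlapped between the groups at 401 and 257 CPM in the SD mice and 376 and 488 in the HFD mice (adjusted p = 0.806). Pdgfra, the receptor that defines the lineage, stood at 276 and 201 CPM in the SD mice and 409.9 and 397 in the HFD mice (adjusted p = 0.0957). Ghr was lower, at 1279.9 and 1422 CPM in the SD mice and 869 and 919 in the HFD mice (log2 fold change -0.80, adjusted p = 0.00914 by edgeR). It is also an adipocyte marker and fell in macrophage-like nuclei too (log2 fold change -3.31). The part of adipocyte RNA in its fall in progenitor-like nuclei was not tested. Ebf2, which fell in adipocyte-like nuclei, stood at 2776 and 2080.0 CPM in the SD mice and 2339 and 3166 in the HFD mice and did not pass (adjusted p = 0.963). By the rule for named genes the class raised Igf2bp3, an RNA-binding protein, by at least 8.61-fold, Insyn2b by at least 12.2-fold, Pebp1 by at least 8.10-fold, Tmprss11d by at least 8.28-fold and the antisense transcript Arhgap20os by at least 9.92-fold, all from 0 UMIs in both SD mice. The falls by that rule were Cyp2e1, Smoc1, Adrb3, Acvr1c, Unc5c and Ankef1, of which Smoc1 went from 29.6 and 74.0 CPM to 2.00 and 4.49 CPM. Adrb3 stood at 13.7 and 59.5 CPM in the SD mice and 1.45 and 3.37 in the HFD mice and Cidec, another adipocyte gene, at 27.3 and 94.9 CPM in the SD mice and 9.63 and 11.2 in the HFD mice. Both were at higher levels in SD barcodes under 500 UMIs, with Cidec at 614 and 979.5 CPM there. Of 15 lipid-associated macrophage genes 12 were higher in the class, beside 5.69% of all genes tested. Trem2 and Fabp5 among them had 0 UMIs in both SD mice, so that a fall of them could not have been seen. Gpnmb stood at 54.7 and 17.7 CPM in the SD mice and 184 and 168 in the HFD mice. Lgals3 stood at 29.6 and 25.7 CPM in the SD mice and 122 and 108 in the HFD mice. The part of macrophage RNA from other droplets was not tested. Without 1 mouse calls were lost by Ghr (without rep128, at 0.132), Insyn2b (without rep146, at 0.0545), Pebp1 (without rep146, at 0.0808), Tmprss11d (without rep144 or rep146, at up to 0.111), Arhgap20os (without rep144, rep146 or rep128, at up to 0.104), Cyp2e1 (without rep146, at 0.0533), Adrb3 (without rep146 or rep128, at up to 0.0905), Acvr1c (without rep146 or rep128, at up to 0.190), Unc5c (without any of the 4, at up to 0.245), Cidec (without rep146 or rep128, at up to 0.164) and Gpnmb (without rep146, rep128 or rep129, at up to 0.176). Of the 564 higher genes 108, and of the 292 lower genes 71, had their highest level of the 4 tested classes in progenitor-like nuclei of both mice of the higher group.

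Mesothelial-like nuclei, with 33 and 22 nuclei in the SD mice and 80 and 46 in the HFD mice, allowed few calls. Of 3693 genes tested 42 (1.14%) were called, 32 higher (0.867%) and 10 lower (0.271%), and 68 without rep146. With library totals 45 were higher and 7 lower. Of the mesothelial markers, by which the class was named, 0 of 7 were called. Msln, mesothelin, stood at 89.7 and 149 CPM in the SD mice and 101 and 53.4 in the HFD mice. Upk3b, a uroplakin, stood at 80.7 and 119 CPM in the SD mice and 251 and 176 in the HFD mice. Synpr, a synaptic vesicle protein, Gpnmb and Slc38a11 had 0 UMIs in both SD mice and were at least 13.1-fold, 12.3-fold and 9.85-fold higher, and these 3 kept their calls without any 1 of the 4 mice. Mmp12 and Atp6v0d2, macrophage genes like Gpnmb, were at least 7.67-fold and 7.91-fold higher. Gpnmb stood at 150.2 and 198 CPM in mesothelial-like nuclei of the HFD mice, near its 184 and 168 CPM in progenitor-like nuclei, against 1662 and 1300.1 CPM in macrophage-like nuclei. Calls lost when 1 mouse was left out were those of Mmp12 (without rep128, at 0.0858, and not fitted without rep129), Atp6v0d2 (without rep128 or rep129, at up to 0.0757) and Bank1 (without rep128, at 0.0542). Among the lower genes Bank1, a B-cell adaptor, had 24 and 17 UMIs in the SD mice and 3 and 4 in the HFD mice. Endothelial-like nuclei, 13 and 16 in the SD mice, were not tested within the class. They held macrophage genes, with F13a1 at 3414 and 3089.6 CPM in the SD mice and Gpnmb at 1257 and 1127 CPM in the HFD mice.

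For each gene, the difference over the nuclei kept for clustering was last split into parts. A share part came from the shares of UMIs held by the classes and a level part from the levels within them. Both parts were averaged over the 4 pairs of an HFD with an SD mouse. The whole-tissue sums over barcodes of at least 1000 UMIs were not what was split. Over 4076 called genes with at least 20 CPM in either group, the share part made up a median of 33.8% of both parts in size (quartiles 18.7% and 51.9%), 23.4% for genes higher and 42.3% for genes lower in the HFD mice. With the numbered clusters in place of classes the median was 64.2%. The level part includes changes inside mixed and unnamed nuclei, which held 80.9% and 76.6% of the UMIs in the SD mice and 44.6% and 56.4% in the HFD mice, and the split depends on how finely nuclei are divided. For Plin1 the level over nuclei fell by 244 CPM, and the share part was 64.0% of both parts. It was 28.4% for Adrb3, which fell by 488 CPM, 22.7% for Cish, which fell by 59.4 CPM, and 37.1% for Ghr, which fell by 12472 CPM. It was 32.5% for Gpnmb, which rose by 859.7 CPM, and 15.3% for Col3a1, which rose by 659 CPM. F13a1 combined a share part of 1108 CPM, upward, with a level part of -1167 CPM within classes.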

How the data were processed

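Nuclei of visceral white adipose tissue were profiled by single-nucleus RNA sequencing. The deposited matrices hold raw UMI counts per gene and barcode, made by the authors with Cell Ranger 7.1.0 per the file headers, while the submitters' processing notes name Cell Ranger 5.0.1, bcl2fastq 2.20.0 and the build mm39. The cause of that difference is not given in the sources used here. Groups came from the sample titles.

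Whole-tissue counts were summed over barcodes with at least 1000 UMIs and at most 5% mitochondrial UMIs. Genes were filtered with filterByExpr, scaled by TMM and tested with edgeR 4.0.16 (R 4.3.3) by its quasi-likelihood test in a fit of all 8 libraries in 4 groups, with the contrast mCherry HFD against SD and Benjamini-Hochberg adjustment at 0.05. Nuclei above the library limit and with at least 300 genes were clustered with scanpy 1.11.5 (2000 variable genes, 30 components, 15 neighbours, Leiden resolution 1.0). Scrublet's own threshold marked at most 0.154% of the nuclei of the 4 mCherry libraries, so nuclei with the highest scores were removed at 0.8% per 1000 nuclei. Counts were then summed per class and library and tested in the same way, and the nuclei per class were tested with edgeR against library totals. CPM scale UMI counts to the total of the class or tissue. DESeq2 1.42.0 was an alternative. The test was also run on simulated data, whose outcome is not given here.

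The named genes are, among called genes with a mean of at least 20 CPM in the higher group and both HFD mice on 1 side of both SD mice, leaving out predicted, mitochondrial and ribosomal protein genes, the 10 with the largest rise and the 10 with the largest fall in the whole tissue and the 6 of each in a class, to which genes of the lists were added. Some genes that the rule or the lists take are not reported here. The members and gene lists were chosen with earlier results of these data known. All tests rest on 2 mice per group.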

Additional observations from a re-analysis of the deposited data

Results flagged for a closer look

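In the mCherry mice, genes of other tissues stood in 1 library each. Lcn8, an epididymal gene, stood at 60.5 CPM and albumin (Alb) at 9.65 CPM in rep128, and Rbfox3, a neuronal gene, at 249 CPM in rep146, each above the level in the other 3 mice. Rbfox3 led an unnamed cluster of rep146 together with the smooth-muscle gene Myh11. The next 4 genes had both HFD mice on opposite sides of the SD mice in 2 classes, and the difference between the classes was not tested. Cxcl12, a chemokine, had a log2 fold change of 3.12 in adipocyte-like nuclei and -1.53 in macrophage-like nuclei. Pparg had -1.17 in adipocyte-like nuclei and 1.26 in macrophage-like nuclei. Scarb1 had -1.36 in adipocyte-like nuclei and 1.62 in macrophage-like nuclei. Cd80 had -1.20 in macrophage-like nuclei and 1.60 in progenitor-like nuclei.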

How the results depend on the processing

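No paired analysis was possible because the mouse numbers of the SD and HFD groups (rep144 and rep146, rep128 and rep129) share none. Alternatives with the 10% and 30% foreign-marker limits, without that limit, and with clusters held by 1 library named were chosen after seeing the data. Within-class calls were 1406 by DESeq2 and 4206 without the limit in adipocyte-like nuclei, 448 by DESeq2, 347 at 10%, 1911 at 30% and 3235 without it in progenitor-like nuclei, and 10 by DESeq2, 83 with no filter on low counts, 24 at 10%, 379 at 30% and 1647 without it in mesothelial-like nuclei. Adipocyte markers lower in adipocyte-like nuclei were 6 with no filter on low counts and 5 without the limit. With a limit of 1000 UMIs in every library the log2 fold change of class shares was -1.22 for macrophage-like, -0.75 for progenitor-like and 0.83 for endothelial-like nuclei. In that setting most barcodes of rep128 fell in clusters held by 1 library, and with those named it was 2.71 for macrophage-like, -0.82 for progenitor-like, 0.60 for endothelial-like and 0.93 for mural-like nuclei, the last without a call. With TMM across classes it was 0.33 for progenitor-like and 1.58 for mural-like nuclei, the latter without a call, and in the 4 mCherry libraries alone 0.90 for progenitor-like nuclei without a call. The share part was 64.2% by cluster number and 38.1% without the limit. Leaving out 1 library gave 3498 to 9771 calls in the whole tissue, 154 to 2846 in adipocyte-like, 228 to 1143 in progenitor-like, 1037 to 3358 in macrophage-like and 35 to 117 in mesothelial-like nuclei. Class shares then ranged from -4.62 to -3.82 for adipocyte-like, 3.24 to 3.65 for macrophage-like, 0.74 to 1.04 for progenitor-like, 1.84 to 2.47 for endothelial-like, 1.35 to 2.88 for mural-like and 0.028 to 0.85 for mesothelial-like nuclei. Lower adipocyte markers numbered 9 to 11 in the whole tissue and 1 to 3 in adipocyte-like nuclei, higher lipid-associated macrophage genes 14 to 16 and 14 to 17 in macrophage-like nuclei, and lower resident macrophage genes 1 to 8. Of the named genes that passed the test, 3 markers of other cell types in adipocyte-like nuclei changed direction, without the foreign-marker limit, to 0.39 (Dpp4), 0.56 (Gpm6a) and 0.010 (Wt1), and no other did under the alternatives run. Genes that did not pass also turned, namely Stat5a, H2-Aa, Dpp4 and Ebf2 in progenitor-like nuclei, Csf1r, Tert, Plin1 in adipocyte-like nuclei and Msln. The HFD values of adipocyte-like nuclei rest on 99 and 22 nuclei, which limits single genes of low level.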
